A study of Homo sapiens with 9 samples.

Results

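The PI3K and FOXO signalling genes described here are 9 genes of the insulin and growth factor pathway: IRS1, IRS2, PIK3CA, PIK3R1, PIK3IP1, AKT1, FOXO1, FOXO3 and TXNIP. They were picked by name, with earlier results of these data known, from 58735 genes in all. Each is the row of the count table that carries its symbol. All 9 passed the filter on low counts and belonged to the 16350 genes tested. RNA sequencing was done on SKOV3, an epithelial ovarian cancer line known for amplified ERBB2, in 3 groups of 3 libraries. In the first group the cells expressed WT CDK9, the kinase of the elongation factor P-TEFb, and were left untreated. In the second, cells with WT CDK9 received an inhibitor of the receptor tyrosine kinase ALK for 24 h. In the third, untreated cells expressed CDK9 with phenylalanine in place of the tyrosine at residue 19 (Tyr19Phe CDK9), which ALK cannot phosphorylate there. All groups shared the SKOV3 background, an introduced CDK9 and the same serum-containing medium. In other experiments of the study, CDK9 was re-expressed in SKOV3 cells depleted of their own CDK9. Whether these libraries came from such depleted cells is not stated in the sources used here. The labels give neither the inhibitor's name nor its dose for these libraries, nor the number of clones behind each line, nor whether replicates were separate cultures. The p-values therefore measure the spread between these libraries, which may be technical, and clonal differences between the lines cannot be told apart from the residue change.

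The pathway runs from the cell surface to the nucleus. Insulin and IGF receptors phosphorylate the docking proteins IRS1 and IRS2, which recruit the PI3K enzyme made of a regulatory and a catalytic subunit. Its lipid product brings AKT to the membrane, and AKT phosphorylates the forkhead factors FOXO1 and FOXO3 and holds them in the cytoplasm. When the signal is low, the FOXO factors enter the nucleus and turn on genes of growth arrest, stress resistance and feedback, IRS2 among them. TXNIP, an alpha-arrestin, binds thioredoxin and restrains glucose uptake. RNA was measured here, so neither phosphorylation nor the location of these proteins is described.

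The sequences before the start sites of IRS1, IRS2 and TXNIP are shown because these are the 3 members that differed with the inhibitor. The adaptors differed in one direction and TXNIP in the other. They come from RefSeq on GRCh38.p14, where all 9 members had an entry, and are the 250 bases before the start site, read 5′ to 3′ on the strand of the gene, which is the minus strand for all 3. IRS1 covers chr2:226799821-226800070, IRS2 covers chr13:109786584-109786833 and TXNIP covers chr1:145996580-145996829. Capitals mark matches to the motifs named after the sequences.
IRS1: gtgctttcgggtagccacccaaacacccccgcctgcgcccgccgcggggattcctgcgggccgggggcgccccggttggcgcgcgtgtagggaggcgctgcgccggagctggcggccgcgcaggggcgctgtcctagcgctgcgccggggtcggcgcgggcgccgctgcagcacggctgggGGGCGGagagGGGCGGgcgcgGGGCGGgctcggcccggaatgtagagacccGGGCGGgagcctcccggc
IRS2: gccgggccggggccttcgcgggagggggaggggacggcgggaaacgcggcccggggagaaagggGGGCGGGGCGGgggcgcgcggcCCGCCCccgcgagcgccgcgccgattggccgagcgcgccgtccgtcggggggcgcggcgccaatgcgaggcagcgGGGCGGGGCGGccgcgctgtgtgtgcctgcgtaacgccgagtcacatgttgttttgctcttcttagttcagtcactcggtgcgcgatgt
TXNIP: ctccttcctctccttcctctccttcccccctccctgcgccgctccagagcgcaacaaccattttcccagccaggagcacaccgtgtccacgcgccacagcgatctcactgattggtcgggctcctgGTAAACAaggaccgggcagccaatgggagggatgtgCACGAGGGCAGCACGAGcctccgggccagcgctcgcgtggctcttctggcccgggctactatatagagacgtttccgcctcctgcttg

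Motifs were searched on both strands in windows of 300 bases, the 250 before and 50 after the start, of 35116 RefSeq promoters. The FOXO site GTAAACA stood in 3.42% of them, and among the members in TXNIP, 124 bases before the start, and in PIK3CA on the opposite strand, 149 bases before the start. The carbohydrate response element, searched as CACGAGNNNNNCACGAG with N for any base, stood in 2 of the 35116 promoters. TXNIP held 1 of these, 88 bases before the start. This motif was added after the TXNIP promoter had been read. The E-box CACGTG, present in 7.26% of promoters, was found in IRS1 alone among the members, from base 36 after the start and so beyond the stretch shown. The GC box GGGCGG stood in 7 of the 9 members, all but PIK3IP1 and TXNIP, and in 45% of all promoters. Its matches overlap each other in IRS2 and AKT1, while no match of one motif overlaps a match of another in these 9 windows. The cAMP response element TGACGTCA, in 1.85% of promoters, had no match in any member. Neither had the TATA box, searched as the letters TATAAA alone and present in 11.5% of promoters. Other forms of that box were not searched. A match is a description of the letters and was not tested as a binding site.

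The libraries held 18169050 to 20974903 counts in the groups with WT CDK9 and 26485891 to 29320184 counts with Tyr19Phe CDK9. A count of 3, taken as the floor, equalled 0.102 to 0.165 CPM, and CPM (counts scaled to a common library size, by TMM) are given below. The 5 epithelial markers passed the filter, from EPCAM at 9.72 to 23.0 CPM up to ERBB2 at 1380 to 2630 CPM. ERBB2, a receptor that itself feeds PI3K, was higher with inhibitor (log2 fold change 0.55, adjusted p = 2.96e-13 by edgeR) and lower with Tyr19Phe (-0.29, adjusted p = 5.4e-08) than in WT. With Tyr19Phe the keratins KRT8 and KRT18 were higher (0.375 and 0.39, adjusted p = 5.11e-10 and 1.01e-06), while KRT19 (-1.24, adjusted p = 3.86e-17) and the adhesion molecule EPCAM (-0.82, adjusted p = 1.76e-05) were lower. With inhibitor KRT19 was higher (0.21, adjusted p = 0.0167), and KRT8, KRT18 and EPCAM did not pass the test (adjusted p = 0.997, 0.148 and 0.973). The part of these marker differences in the members' values was not tested. The 6 leukocyte, endothelial and erythroid markers did not pass and had 0 to 35 counts, the highest for CDH5. CDK9 lay between 43.8 and 59.5 CPM. It did not pass the test against WT in either group (edgeR quasi-likelihood test, adjusted p = 0.665 with inhibitor and 0.106 with Tyr19Phe), and was higher by 0.27 (log2) with Tyr19Phe than with inhibitor (adjusted p = 0.00961). Counts per gene do not separate WT from Tyr19Phe transcripts. ALK had 0 to 5 counts and was not tested. Whether the inhibitor acted through ALK was not tested in these libraries either. In other experiments of the study, an ALK inhibitor lowered the binding signal between phosphorylated ALK and CDK9 in SKOV3 cells.

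Compared per kilobase of the listed gene length, so that genes can be set side by side, TXNIP came first with a mean of 48.33 CPM per kb over the 9 libraries (range 36.43 to 61.79). AKT1 followed with 24.28 (range 20.93 to 25.84). FOXO3 had 11.78, IRS2 9.38, PIK3R1 6.433, PIK3CA 5.011, IRS1 3.804 and FOXO1 1.326 CPM per kb. PIK3IP1 was the lowest with 0.2325 CPM per kb. The ranges of FOXO3 and IRS2, of IRS2 and PIK3R1, and of PIK3CA and IRS1 overlapped, and all other neighbours in this order were separated. Even so, FOXO3 was above IRS2 and PIK3CA above IRS1 in 9 of 9 libraries, and IRS2 above PIK3R1 in 8. The order depends on the length, and the alternative of the main GENCODE transcript, much shorter than the listed length for AKT1 and PIK3R1, was chosen after seeing the data. Per kb of that transcript, AKT1 had 91.66 CPM and TXNIP 60.31 CPM, so that AKT1 came first with no overlap, and PIK3R1 had 9.93 CPM against 9.36 CPM for IRS2, above it in 5 of 9 libraries. The places of FOXO3, PIK3CA, IRS1, FOXO1 and PIK3IP1 were the same by either length.

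IRS1 and IRS2 were lower and TXNIP was higher after 24 h with the ALK inhibitor, while the PI3K subunits, AKT1 and both FOXO factors did not pass the test. With Tyr19Phe CDK9, IRS1 was higher, and AKT1, FOXO1 and TXNIP were lower. IRS1 and TXNIP thus moved in opposite directions from the same WT libraries. The values by library are given member by member, from the receptor to the nucleus, and are plotted by group.

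**Figure D1:**
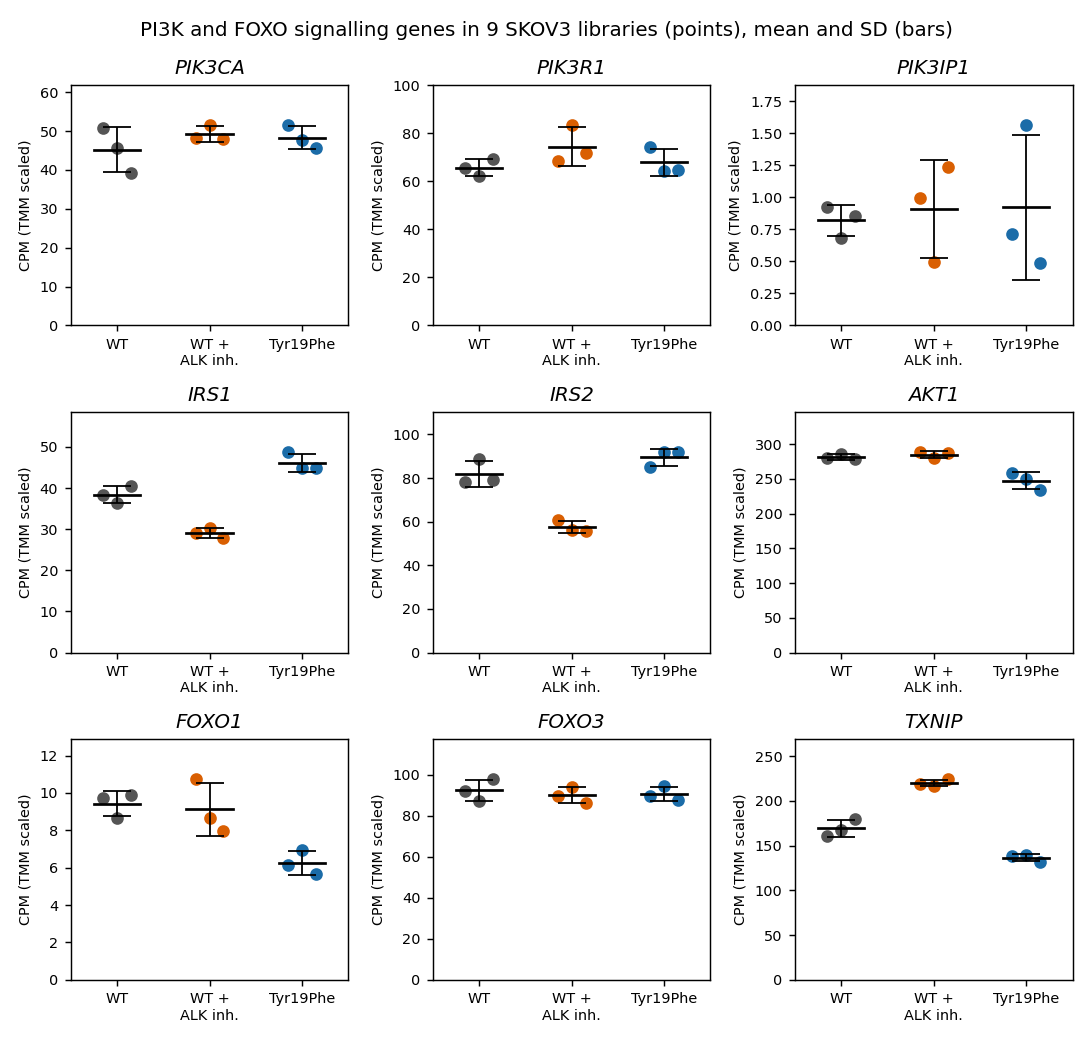
CPM (y axis, from 0, scaled by TMM) of the 9 members in each library (points) of WT CDK9 cells, WT CDK9 cells with ALK inhibitor and Tyr19Phe CDK9 cells, with the mean and SD of 3 libraries as bars. The 3 groups of IRS1 and of TXNIP do not overlap, whereas those of PIK3CA, PIK3R1, PIK3IP1 and FOXO3 do.

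IRS1 (ENSG00000169047), a docking protein of the insulin and IGF receptors, lies on chromosome 2 from 226731317 to 226799759 on the minus strand of GRCh38, and its main transcript has 2 exons in GENCODE release 44. It had 38.3, 36.4 and 40.5 CPM in WT cells, 29.1, 30.3 and 27.9 CPM with inhibitor, and 48.7, 44.8 and 44.8 CPM with Tyr19Phe. Every inhibitor library was below and every Tyr19Phe library above all WT libraries. The inhibitor group was 24.1% lower than WT, a log2 fold change of -0.40 (SE 0.087, n = 3 and 3, adjusted p = 0.00369 by edgeR). The Tyr19Phe group was 20.2% higher than WT, a log2 fold change of 0.27 (SE 0.084, n = 3 and 3, adjusted p = 0.0241 by edgeR). The latter call was lost without WT replicate 1 (adjusted p = 0.0704), WT replicate 2 (0.0998) or Tyr19Phe replicate 1 (0.118). The direct contrast of Tyr19Phe against inhibitor was 0.66 on the log2 scale (SE 0.086, adjusted p = 4.47e-07 by edgeR), a 1.585-fold higher level.

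IRS2 (ENSG00000185950), the other widely expressed docking protein, lies on chromosome 13 from 109752698 to 109786568 on the minus strand, also with 2 exons. It had 78.0, 88.7 and 78.9 CPM in WT cells, 60.8, 56.0 and 56.0 CPM with inhibitor, and 85.03, 91.9 and 91.8 CPM with Tyr19Phe. The inhibitor libraries lay below all others, and the WT and Tyr19Phe libraries overlapped. IRS2 was 29.6% lower with inhibitor than in WT cells, a log2 fold change of -0.51 (SE 0.069, adjusted p = 4.24e-06 by edgeR). The Tyr19Phe group differed from WT by 0.13 on the log2 scale with a 95% interval of -0.01 to 0.27 (adjusted p = 0.195 by edgeR), which does not show that the groups are alike. Against the inhibitor group it was 1.554-fold higher (log2 0.64, SE 0.068, adjusted p = 1.25e-08 by edgeR). The ratio of IRS1 to IRS2 per length was 0.385 ± 0.0442 in WT, 0.414 ± 0.0257 with inhibitor and 0.422 ± 0.0404 with Tyr19Phe (SD, n = 3 each), differences smaller than the SD of the WT libraries.

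The subunits of the enzyme did not pass the test in any comparison. PIK3CA (ENSG00000121879; chromosome 3, 179148114 to 179240093, plus strand), the catalytic subunit p110-alpha, had 50.7, 45.8 and 39.2 CPM in WT, 48.1, 51.5 and 47.9 CPM with inhibitor and 51.5, 47.8 and 45.6 CPM with Tyr19Phe. Its groups overlapped, and its log2 fold changes of 0.12 (95% interval -0.06 to 0.30) with inhibitor and 0.10 (-0.08 to 0.27) with Tyr19Phe did not pass the test (adjusted p = 0.59 and 0.514 by edgeR). KCNMB3, on the opposite strand within the PIK3CA region, had 46 to 117 counts against at least 733 for PIK3CA, and the strand setting of the counting is not given in the sources used here.

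PIK3R1 (ENSG00000145675; chromosome 5, 68215720 to 68301821, plus strand), the regulatory subunit p85-alpha that docks on IRS proteins, had 65.4, 62.1 and 69.3 CPM in WT, 68.2, 83.4 and 71.6 CPM with inhibitor and 74.4, 64.2 and 64.8 CPM with Tyr19Phe. The groups overlapped, with inhibitor replicate 2 the highest library. The log2 fold change with inhibitor was 0.18 (SE 0.077), with an unadjusted p of 0.0267 and an adjusted p of 0.243 by edgeR. With Tyr19Phe it was 0.05 (adjusted p = 0.746 by edgeR). The ratio of PIK3R1 to PIK3CA per length was 1.30 ± 0.227, 1.33 ± 0.0907 and 1.24 ± 0.0416 (SD, n = 3 each) in WT, inhibitor and Tyr19Phe cells by the listed length, and 1.95 ± 0.344, 2.00 ± 0.135 and 1.86 ± 0.0688 by the main transcript.

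PIK3IP1 (ENSG00000100100; chromosome 22, 31281593 to 31292534, minus strand), a membrane protein that restrains PI3K, was barely detected. It had 18, 13 and 16 counts in WT, 21, 9 and 24 counts with inhibitor and 21, 44 and 13 counts with Tyr19Phe, or 0.490 to 1.57 CPM. At this depth the 95% interval of its log2 fold change ran from -1.11 to 1.41 with inhibitor and from -1.07 to 1.41 with Tyr19Phe, so changes of the size of the other members were not detectable.

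AKT1 (ENSG00000142208; chromosome 14, 104769349 to 104795751, minus strand), the kinase at the centre of the pathway, had 279.7, 286 and 278.5 CPM in WT, 288 CPM, 279 CPM and 287 CPM with inhibitor, and 258 CPM, 249.7 CPM and 234 CPM with Tyr19Phe. The WT and inhibitor libraries overlapped, and all Tyr19Phe libraries lay below them. The inhibitor group differed from WT by 0.02 (log2; 95% interval -0.07 to 0.11; adjusted p = 0.916 by edgeR). The Tyr19Phe group was 12.2% lower than WT (log2 fold change -0.19, SE 0.043, adjusted p = 0.00181 by edgeR) and 13.3% lower than the inhibitor group (log2 fold change -0.21, SE 0.043, adjusted p = 0.000607 by edgeR).

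FOXO1 (ENSG00000150907; chromosome 13, 40469953 to 40666597, minus strand) is a forkhead factor that AKT phosphorylates. It had 9.75, 8.66 and 9.89 CPM in WT, 10.7, 8.68 and 7.96 CPM with inhibitor, and 6.13, 6.94 and 5.66 CPM with Tyr19Phe, behind which stand 150 to 226 counts a library. The Tyr19Phe libraries lay below all others, and the WT and inhibitor libraries overlapped. FOXO1 was 33.8% lower with Tyr19Phe than in WT cells (log2 fold change -0.59, SE 0.173, adjusted p = 0.0136 by edgeR). This call was lost without WT replicate 1 (adjusted p = 0.056), WT replicate 3 (0.0549) or Tyr19Phe replicate 3 (0.0643). With inhibitor the log2 fold change was -0.05 with a 95% interval of -0.40 to 0.30 (adjusted p = 0.951 by edgeR). The direct contrast of Tyr19Phe against inhibitor was -0.55 (SE 0.173, adjusted p = 0.0214 by edgeR) and was lost without inhibitor replicate 1 (-0.41, adjusted p = 0.155), Tyr19Phe replicate 1 (0.0575) or Tyr19Phe replicate 3 (0.0872).

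FOXO3 (ENSG00000118689; chromosome 6, 108559835 to 108684774, plus strand), the more abundant forkhead factor in these cells, was close to level. It had 91.9, 87.2 and 97.6 CPM in WT, 89.6, 94.1 and 86.1 CPM with inhibitor and 89.3, 94.5 and 87.8 CPM with Tyr19Phe, and the groups overlapped. The 95% intervals of its log2 fold change were -0.16 to 0.09 with inhibitor and -0.15 to 0.10 with Tyr19Phe (adjusted p = 0.869 and 0.834 by edgeR). The near-identical copy FOXO3B had 14 to 73 counts against at least 1653 for FOXO3, and how reads shared by both were counted is not given in the sources used here. Per length, FOXO3 exceeded FOXO1 by 7.91 ± 0.271 times in WT, 8.08 ± 1.16 times with inhibitor and 11.8 ± 0.751 times with Tyr19Phe (SD, n = 3 each).

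TXNIP (ENSG00000265972; chromosome 1, 145992435 to 145996600, minus strand), the alpha-arrestin that restrains glucose uptake, moved both ways. It had 160.3 CPM, 167 CPM and 179.8 CPM in WT, 218 CPM, 217 CPM and 224 CPM with inhibitor, and 138 CPM, 139 CPM and 132 CPM with Tyr19Phe. The 3 groups did not overlap. TXNIP was 29.9% higher with inhibitor (log2 fold change 0.38, SE 0.049, adjusted p = 1.8e-06 by edgeR) and 19.2% lower with Tyr19Phe (log2 fold change -0.31, SE 0.049, adjusted p = 1.66e-05 by edgeR) than in WT cells. It was 37.8% lower with Tyr19Phe than with inhibitor (log2 fold change -0.69, SE 0.049, adjusted p = 1.37e-12 by edgeR), the smallest p of the members.

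**Figure D2:**
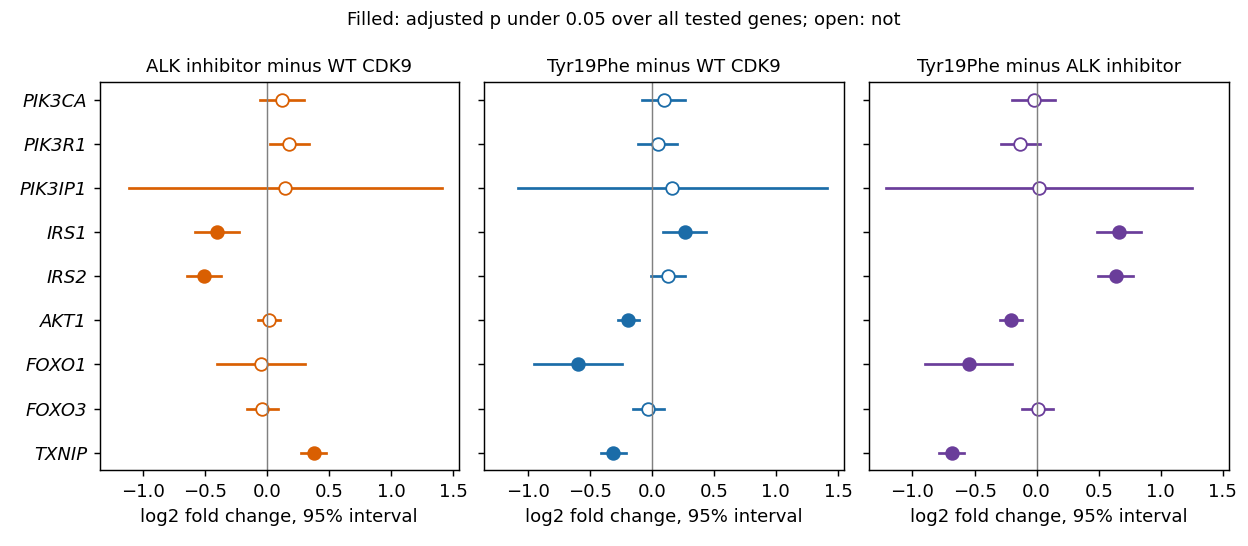
Log2 fold changes (x axis) of the 9 members in the 3 comparisons with 95% intervals, filled points for an adjusted p under 0.05 over all 16350 tested genes. IRS1 and TXNIP lie on opposite sides of 0 in the first and second panels, and PIK3IP1 has by far the widest intervals.

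With inhibitor, 3 of the 9 members were called at an adjusted p under 0.05, 1 higher and 2 lower, where 4.55% of all tested genes were called, 1.82% higher and 2.73% lower. The libraries of both groups did not overlap for 3 members, and for 19.6% of all tested genes. With Tyr19Phe, 4 members were called, 1 higher and 3 lower, against 18% of all tested genes, 7.61% higher and 10.4% lower, and the groups did not overlap for 4 members and 32.6% of all genes. Without WT replicate 1 that count was 2, with AKT1 and TXNIP. Between Tyr19Phe and inhibitor, 5 members were called, IRS1 and IRS2 higher and AKT1, FOXO1 and TXNIP lower with Tyr19Phe, against 20.7% of all tested genes, 9.57% higher and 11.1% lower. Here the groups did not overlap for 5 members and for 34.4% of all genes. IRS1 and TXNIP were called in opposite directions against the shared WT libraries, as were 93 of all tested genes, or 0.569%. Taken without sign, the log2 fold changes of the members had medians of 0.151, 0.167 and 0.205 in the 3 comparisons, beside 0.126, 0.181 and 0.196 over all tested genes. The members were chosen with earlier results of these data known. Their shares beside those of all genes therefore cannot show a response particular to the pathway.

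The chromosomal surroundings of some members moved as well in Tyr19Phe cells. The 65 tested genes within 5 Mb of AKT1 had a median log2 fold change of -0.23 against WT, with 26 called, each of them lower, beside AKT1's own -0.19. Among all tested genes, 7.61% were called higher and 10.4% lower in this comparison. Around PIK3IP1, 26 of 80 tested neighbours were called higher and 1 lower (median 0.17), beside a log2 fold change of 0.17 for PIK3IP1 that did not pass the test. The medians of the neighbours were -0.13 for IRS1, 0.09 for TXNIP and -0.03 for FOXO1, of which IRS1 and TXNIP themselves moved in the other direction from their neighbours. With inhibitor the same medians lay between -0.03 and 0.05 for all 9 members. The part of the neighbourhood in the AKT1 value was not tested.

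**Figure D3:**
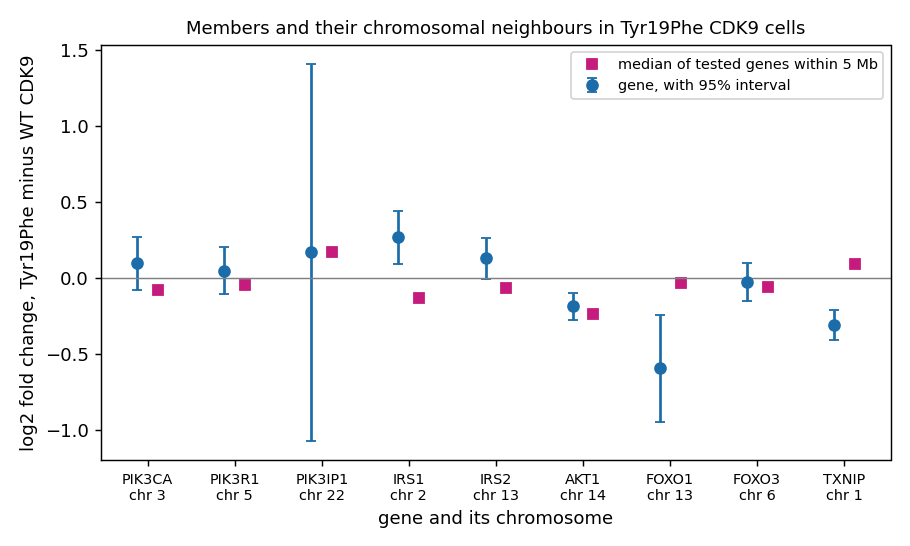
Log2 fold change of Tyr19Phe against WT CDK9 cells (y axis) for each member with its 95% interval (circles) and the median of the tested genes within 5 Mb of it (squares). The AKT1 point and its neighbours' median are both below 0, while IRS1 and TXNIP lie on the opposite side of 0 from their neighbours.

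Beyond the 9 members, 132 other pathway genes in 6 lists were examined, of which 117 were tested. With inhibitor, 4 were higher and 3 lower (5.98%, beside 4.55% of all tested genes). With Tyr19Phe, 14 were higher and 26 lower than in WT (34.2%, beside 18%), and against the inhibitor group 14 were higher and 23 lower (31.6%, beside 20.7%). The lists were written by hand from textbook knowledge, with earlier results of these data known. They were not tested as sets, so these shares cannot show an enrichment of the pathway.

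Of 15 tested receptors and adaptors, 1 was called, higher, with inhibitor (6.67%, beside 4.55% of all tested genes, median log2 fold change -0.000269). The ligands IGF1 and IGF2, also on this list, did not pass the filter on low counts and were not tested. With Tyr19Phe 2 were higher and 4 lower (40%, beside 18%, median 0.03). INSR, the insulin receptor, was lower with Tyr19Phe at 6.08 ± 0.428 CPM against 10.2 ± 0.429 CPM in WT (SD, n = 3 each; log2 fold change -0.75, adjusted p = 0.00444 by edgeR). IGF2R, which clears IGF2, was lower too (log2 fold change -0.31, adjusted p = 5.26e-07). GRB10, an adaptor that restrains insulin and IGF receptors, rose from 11.4 ± 1.60 to 22.3 ± 0.705 CPM (log2 fold change 0.97, adjusted p = 1.66e-06). SH2B3, an adaptor protein, was higher with Tyr19Phe (0.27, adjusted p = 0.00374) and was the member of this list called with inhibitor (0.23, adjusted p = 0.0391), a call lost without WT replicate 1 (adjusted p = 0.257), inhibitor replicate 1 (0.195) or inhibitor replicate 2 (0.0849). Against the inhibitor group, 1 was higher and 3 lower with Tyr19Phe (26.7%, beside 20.7% of all tested genes). Among the lower, INSR lost its call without any 1 of inhibitor replicates 1 and 3 (adjusted p = 0.256 and 0.0973) or Tyr19Phe replicates 2 and 3 (0.0628 and 0.0928).

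Of 13 tested PI3K subunits and lipid phosphatases, 1 was called, lower, with inhibitor (7.69%, beside 4.55% of all genes, median log2 fold change 0.04). It was INPPL1, the phosphatase SHIP2 that removes the 5-phosphate of the PI3K product, at 385 ± 9.56 CPM against 525 ± 24.4 CPM in WT (log2 fold change -0.45, adjusted p = 8.68e-10 by edgeR). With Tyr19Phe 1 was higher and 2 lower (23.1%, beside 18% of all genes, median -0.10). INPP5E, another 5-phosphatase, was higher (log2 fold change 0.60, adjusted p = 1.41e-06). Of the 107 tested genes within 5 Mb of it, 36 were also called higher (median 0.22), beside 7.61% of all tested genes. PIK3CB, the catalytic subunit p110-beta, was lower (-0.33, adjusted p = 0.000485), as was PIK3C2A of class II (-0.21, adjusted p = 0.0125), whose call was lost without WT replicate 3 (adjusted p = 0.147) or Tyr19Phe replicate 2 (0.0707). Against the inhibitor group 2 were higher and 2 lower with Tyr19Phe (30.8%, beside 20.7%).

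Of 29 tested genes of AKT, mTOR and their substrates, 0 were called with inhibitor by edgeR or DESeq2 (4.55% of all genes by edgeR). At an unadjusted p under 0.05 there were 6, where 15.1% of all tested genes had one, and the median log2 fold change was 0.00163. With Tyr19Phe 5 were higher and 7 lower against WT (41.4%, beside 18%, median -0.01). Likewise 5 were higher and 7 lower against the inhibitor group (41.4%, beside 20.7%). TRIB3, a pseudokinase that binds AKT, rose from 21.7 ± 1.18 CPM in WT to 38.6 ± 2.21 CPM (SD, n = 3 each; log2 fold change 0.83, adjusted p = 2.24e-07). SGK1, a kinase related to AKT, was higher by 0.59 (adjusted p = 1.73e-06), and EIF4EBP1, a translation repressor under mTOR, by 0.46 (adjusted p = 0.000209).

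Of 19 tested FOXO partners and regulators, 0 were called with inhibitor by edgeR or DESeq2 (4.55% of all genes by edgeR). At an unadjusted p under 0.05 there were 3, where 15.1% of all tested genes had one, and the median log2 fold change was 0.00489. With Tyr19Phe 7 were called, each of them lower (36.8%, beside 18%, median -0.12). Against the inhibitor group 1 was higher and 5 lower (31.6%, beside 20.7%). The changes were small. YWHAZ, a 14-3-3 protein of the family that holds phosphorylated FOXO in the cytoplasm, was lower by 0.14 on the log2 scale (log2 fold change -0.14, adjusted p = 0.000586), and CREBBP, an acetyltransferase that acts with FOXO factors, had a log2 fold change of -0.23 (adjusted p = 0.000799). SFN, another 14-3-3 gene, was the 1 called higher against the inhibitor group (0.17, adjusted p = 0.019 by edgeR). Against WT, SFN was not called (0.04, adjusted p = 0.669 by edgeR).

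Of 29 tested FOXO target genes, 2 were higher and 2 lower with inhibitor (13.8%, beside 4.55% of all genes, median log2 fold change 0.09). With Tyr19Phe 5 were higher and 2 lower (24.1%, beside 18%, median 0.12). Between Tyr19Phe and inhibitor, 4 were higher and 2 lower (20.7%, the same share as of all tested genes). CITED2, a transcriptional cofactor, was lower with inhibitor (72.2 ± 2.75 CPM against 106 ± 4.38 CPM, log2 fold change -0.56, adjusted p = 1.09e-07), as was BNIP3, a mitophagy receptor (-0.30, adjusted p = 0.0108). The call of BNIP3 was lost without WT replicate 2 (adjusted p = 0.11), inhibitor replicate 1 (0.0671) or inhibitor replicate 2 (0.0619). KLF2, a Krüppel-like transcription factor, was higher with inhibitor (0.60, adjusted p = 0.0356), a call lost without WT replicate 1 (0.097), WT replicate 3 (0.159), inhibitor replicate 1 (0.0985) or inhibitor replicate 2 (0.254). With Tyr19Phe KLF2 was also higher (0.87, adjusted p = 0.000255), as was GADD45A, a growth arrest and DNA damage gene (0.42, adjusted p = 1.29e-06). BNIP3 (-0.40, adjusted p = 8.35e-05) and CCNG2, the cyclin G2 gene (-0.55, adjusted p = 0.00176), were lower with Tyr19Phe. Of the 41 tested neighbours of CCNG2, 13 were called lower (median -0.24), beside 10.4% of all tested genes.

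Of 12 tested TXNIP relatives and genes of the thioredoxin and glucose response, 1 was called, higher, with inhibitor. This was 8.33%, beside 4.55% of all tested genes (median log2 fold change 0.01). With Tyr19Phe 1 was higher and 4 lower against WT (41.7%, beside 18%, median -0.09). Likewise 1 was higher and 4 lower against the inhibitor group (41.7%, beside 20.7%). ARRDC4, the alpha-arrestin most like TXNIP, fell with Tyr19Phe from 31.7 ± 0.973 to 17.2 ± 2.55 CPM (SD, n = 3 each; log2 fold change -0.89, adjusted p = 1.98e-07). It had 28.7 ± 1.15 CPM with inhibitor and was not called there. TXNRD1, a thioredoxin reductase, was lower with Tyr19Phe (log2 fold change -0.33, adjusted p = 1.8e-07). MLXIP, which encodes the glucose-responsive factor MondoA, was also lower (-0.18, adjusted p = 0.0072), a call lost without WT replicate 1 (adjusted p = 0.0545). TXNRD2, the other thioredoxin reductase of the list, was the 1 gene called higher against the inhibitor group (0.46, adjusted p = 0.00194 by edgeR). Against WT, TXNRD2 was not called (0.22, adjusted p = 0.167 by edgeR). SLC2A1, the glucose transporter GLUT1, was higher with inhibitor (0.20, adjusted p = 0.00149) and with Tyr19Phe (0.25, adjusted p = 2.57e-05) than in the shared WT libraries.

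**Figure D4:**
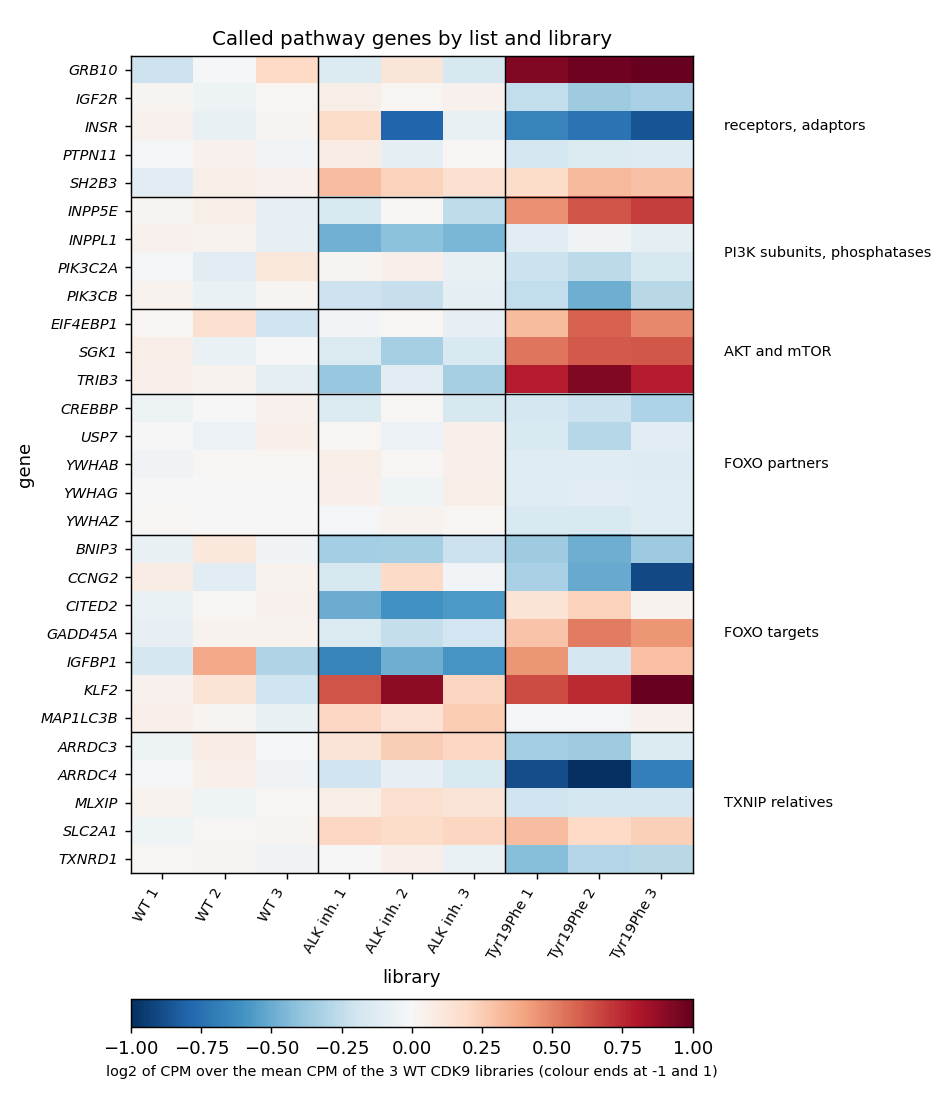
Pathway genes (rows, taken from the called genes with the smallest adjusted p in each list and comparison) in the 9 libraries (columns), coloured by the log2 of CPM over the mean CPM of the 3 WT libraries. The Tyr19Phe columns are darkest for GRB10, TRIB3, KLF2, INSR and ARRDC4, and the inhibitor columns are blue for INPPL1, CITED2 and IGFBP1. Of these, IGFBP1 was not called with inhibitor (adjusted p = 0.12 by edgeR).

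The genes whose levels followed the called members most closely over the 9 libraries were found by the root mean square (RMS) difference of centred log2 CPM, as a description. Nearest to TXNIP was CGNL1 (RMS 0.052), then AKR1C3 (0.0581) and SDC1 (0.066), beside an SD of TXNIP itself of 0.284. Nearest to IRS1 were FAM86C1 (0.0708), MID1 (0.0846) and PABPC1L (0.0853), and nearest to IRS2 were CITED2 (0.0772), ATAD3B (0.0796) and DOT1L (0.0797), beside SDs of 0.278 and 0.282. Nearest to AKT1 were DBN1 (0.0325), PDIA6 (0.0329) and ANXA5 (0.033), beside an SD of 0.1. Nearest to FOXO1 were ORC4 (0.0815), LRP6 (0.103) and RABGAP1L (0.107), beside an SD of 0.298.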

How the data were processed

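RNA was measured in 9 SKOV3 libraries. The authors deposited raw counts (whole numbers) for every gene, with its position and length in bases. The submitters' processing notes name CASAVA, HISAT2 2.0.5, featureCounts 1.5.0-p3 and the builds GRCh38 and hg38; the annotation and the strand setting are not given in the sources used here. The tests used edgeR 4.0.16 under R 4.3.3, and DESeq2 1.42.0 served as an alternative. Genes passed filterByExpr (minimum count 10, minimum total 15), libraries were scaled by TMM, and group means were fitted by quasi-likelihood over the 9 libraries (6 residual degrees of freedom). P-values are two-sided and were adjusted by the Benjamini-Hochberg method over the 16350 genes tested, with calls at an adjusted p under 0.05. The direct contrast of Tyr19Phe against inhibitor tests the difference between their effects. The fit was also run on counts simulated from its own means and dispersions, with 200 genes changed in the inhibitor group. Such a run checks the code and cannot show that the model holds for these libraries.

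Squared differences between replicates were 4.27 to 8.81 times those from counting error alone, so no library was counted as a copy. Deviations of libraries with the same replicate number correlated between -0.0116 and 0.026, so libraries were not paired. Floors cover counting error only. The members, gene lists and tests were chosen with earlier results of these data known. Named genes are all members, up to 4 called genes with the smallest adjusted p per list and comparison, from which the text takes examples, the 3 nearest genes per called member, CDK9, ALK, cell type markers, and overlapping or near-identical genes. Some genes that this rule names are not reported here.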

Additional observations from a re-analysis of the deposited data

How the results depend on the processing

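In 20 alternatives (4 changes of scaling or test, filters, protein-coding genes only, the compared groups alone, thresholds, a replicate block and each library left out), IRS1, IRS2 and TXNIP with inhibitor, AKT1 and TXNIP with Tyr19Phe, and IRS1, IRS2, AKT1 and TXNIP in the direct contrast were called every time. Members called with Tyr19Phe numbered 2 at an adjusted p under 0.01 (11.3% of all tested genes), and 2 to 4 with 1 library left out. Pathway genes called with inhibitor numbered 3 of 117 at an adjusted p under 0.01 (2.61% of all tested genes), 32 of 117 at an unadjusted p under 0.05 (15.1% of all), and 5 to 8 with 1 library left out. With the replicate block, although numbers did not pair the libraries, the member counts were 3, 4 and 5.

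Some uncalled log2 fold changes took either sign with 1 library left out. For PIK3IP1 they ran from -0.131 to 0.444 (inhibitor), -0.44 to 0.471 (Tyr19Phe) and -0.593 to 0.317 (direct contrast, -0.0184 with the replicate block). For FOXO3 the ranges were -0.0724 to 0.00857, -0.0614 to 0.0191 and -0.0200 to 0.0442 in the same order. FOXO1 with inhibitor ran from -0.179 to 0.0428, PIK3R1 with Tyr19Phe from -0.0226 to 0.0924, and PIK3CA in the direct contrast from -0.0744 to 0.0188. PIK3IP1 was not tested under a minimum of 10 counts in every library, since its lowest library had 9. The causes were not tested.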
